A study of Mus musculus with 21 samples.

Results

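The comparison described here set epididymal fat of mice given steamed grain (SMG) against epididymal fat of mice given a supplement labelled RMG, using 3 arrays titled SMG and 3 arrays titled RMG out of 21 arrays in the series. For both groups all 16248 genes with a probe of a single symbol entered the comparison, with the probe that was brightest over the 21 arrays standing for a gene that had several. Epididymal fat is the visceral fat pad beside the testis. The animals were male C57BL/6J mice that arrived at 4 weeks of age, had 1 week of acclimation on chow and then ate their diets for 12 weeks in single housing.

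SMG mice ate a high-fat diet with 40% of energy from fat that held 0.3% steamed grain by weight. RMG mice are labelled with the same high-fat diet, but the protocol lists 6 groups without RMG among them, so neither the supplement nor its dose is known here. The contrast therefore compares 2 supplements under a shared high-fat diet, of which 1 is known only by its code. The 3 HFD arrays (the high-fat diet with no supplement) and the 3 ND arrays (normal feed, 10% of energy as fat) serve as landmarks. Each array is called by its group and title number: SMG 5, 8 and 12, RMG 4, 9 and 10, HFD 4, 6 and 7, and ND 6, 8 and 9. Nothing in the labels says how the mice for the arrays were chosen, or that the arrays of a group are separate animals, so the tests measure the spread between arrays.

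High-fat feeding enlarges the adipocytes of this depot, and macrophages move in around dying fat cells and take up their lipid. Adipocytes build triglyceride from fatty acids and from glycerol made with the help of the enzyme Pck1, and the regulators Pparg, Srebf1 and Mlxipl act on the genes of that storage programme. Obese visceral fat of mice usually holds more macrophages and less RNA of storage genes. Whole fat was measured, so fewer cells of a type and less RNA per cell cannot be told apart.

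Values are log2 levels, so a difference of 1 is a doubling, and a probe's level cannot be set against that of another probe. Array medians over all probes ran from 4.23 to 4.39, and 3 arrays a group limit the precision. The table was held in part. Of protein-coding genes, 78.4 to 91.1 percent were measured for each of chromosomes 1 to 5 and 10 to 19, against 42.0 percent for chromosome 6, while chromosomes 7, 8, 9, X and Y together gave 17 genes, and the rest were not analysed here. SMG array 12 stood apart from the other arrays of both groups. It lay more than 0.5 beyond all the other 5 arrays in 456 genes, 92 above and 364 below, against 27 to 94 genes for each of the other arrays. The main results are therefore given also without it.

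No gene passed the test between SMG and RMG. By limma, a linear model with moderated variances, 0 of 16248 genes passed a Benjamini-Hochberg adjusted p of 0.05, which is 0 percent, and the smallest adjusted p was 0.9998. At an unadjusted p under 0.05 there were 574 genes, or 3.53 percent of those tested, 302 with the higher mean in SMG (1.86 percent) and 272 with the lower mean in SMG (1.67 percent). That count was 280 (1.72 percent) without SMG array 12, 1142 (7.03 percent) without SMG array 5 and 2110 (12.99 percent) with array weights, which count arrays far from their group for less. The 3 SMG arrays lay wholly above the 3 RMG arrays in 785 genes (4.83 percent) and wholly below them in 747 genes (4.6 percent), so the groups did not overlap in 9.43 percent of genes. In the same fit HFD against ND gave 1403 called genes, or 8.63 percent, of which 1063 were higher in HFD (6.54 percent) and 340 lower (2.09 percent). It gave 4111 genes at an unadjusted p under 0.05 (25.3 percent) and 28.7 percent of genes without overlap.

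Over all genes their median was -0.0056 and their SD 0.16, against an SD of 0.32 for HFD minus ND. A size over 0.5 was seen in 169 genes (1.04 percent) and a size over 1 in 1 gene (0.00615 percent). In HFD minus ND these were 1432 genes (8.81 percent) and 207 genes (1.27 percent). The 95% interval of the difference reached a median of 0.31 to each side, and for 15993 genes, 98.4 percent, it lay wholly between -1 and 1. Missing the threshold does not show that the supplements act alike.

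**Figure D1:**
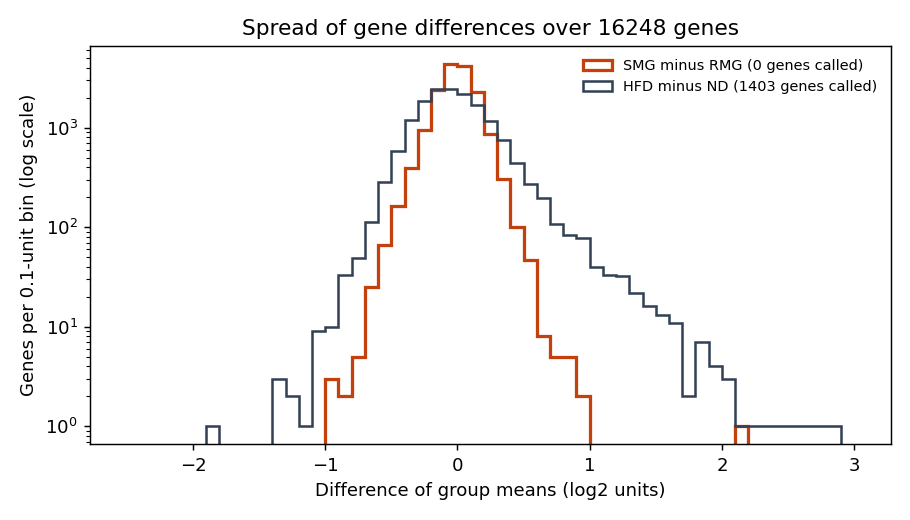
Histogram of gene differences in log2 units, in bins of 0.1 with a log-scaled count axis, for SMG minus RMG (orange outline) and HFD minus ND (dark blue outline) over 16248 genes. The SMG minus RMG distribution is narrower (SD 0.16 against 0.32), and its 1 gene beyond a size of 1 lies at 2.13.

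The gene beyond a size of 1 was a variable segment gene of the immunoglobulin kappa light chain, given here because of that size and so chosen after its values were seen. It stood at 1.85, 3.24 and 6.92 in SMG arrays 5, 8 and 12, against 2.61, 1.69 and 1.31 in RMG arrays 4, 9 and 10. SMG array 12 was far above the rest, SMG array 8 lay above the RMG arrays and SMG array 5 among them. The difference was 2.13 with a 95% interval from 0.06 to 4.20. Without SMG array 12 it was 0.67.

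Since no gene passed, the genes named next are the 12 with the smallest unadjusted p in each direction among genes whose SMG and RMG arrays did not overlap, leaving out predicted gene models. Non-overlap and p chose them, so both describe them and support nothing. Their differences had sizes between 0.24 and 0.89, and 11 of the 24 were dim, with a mean over the 21 arrays below the median gene.

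Among the 12 with the higher mean in SMG, Depp1, a target gene of FOXO transcription factors, showed tight values in both groups. It stood at 6.94, 7.11 and 7.05 in SMG arrays 5, 8 and 12, against 6.29, 6.21 and 6.17 in RMG arrays 4, 9 and 10, a difference of 0.81 ± 0.23 (SE, n = 3 against 3; 95% interval 0.34 to 1.28). The landmark groups spanned both levels, with means of 6.80 ± 0.50 in HFD and 6.76 ± 0.57 in ND (SD, n = 3 each). The SMG arrays were thus all high and the RMG arrays all low within a range that HFD and ND arrays also covered.

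Slc25a25, a mitochondrial carrier of ATP-magnesium and phosphate, stood at 5.63, 5.78 and 6.13 in SMG arrays 5, 8 and 12, against 5.27, 5.29 and 5.42 in RMG arrays 4, 9 and 10, a difference of 0.52 ± 0.14. Hspb8, a small heat shock protein gene, stood at 6.86, 6.96 and 7.44 in the SMG arrays, against 6.57, 6.55 and 6.61 in the RMG arrays, a difference of 0.51 ± 0.15. In both genes SMG array 12 was the highest of the 6. Both had also fallen in HFD against ND, by 0.60 for Slc25a25 and by 0.52 for Hspb8 (adjusted p = 0.0118 and 0.0367 by limma).

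Ctcflos, a long noncoding RNA, averaged 6.81 ± 0.48 in SMG and 6.10 ± 0.32 in RMG (SD, n = 3 each), and it too was lower in HFD than in ND, by a log2 difference of -1.02. Hrk, a cell-death gene of the BH3-only family, averaged 3.36 ± 0.07 in SMG and 2.94 ± 0.16 in RMG. Frat1, an inhibitor of the kinase GSK3 in Wnt signalling, averaged 4.80 ± 0.12 in SMG and 4.37 ± 0.17 in RMG. Adcy4, an adenylyl cyclase gene, Rab11fip2, a partner of the recycling GTPase Rab11, Zfp867, a zinc finger gene, Gsdma3, a gasdermin gene, the pseudogene Rbx1-ps and Rsph3a, a gene of cilia, completed the 12, with differences from 0.32 to 0.89. Rsph3a had a second probe with a difference of -0.03, so its probes disagreed.

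**Figure D2:**
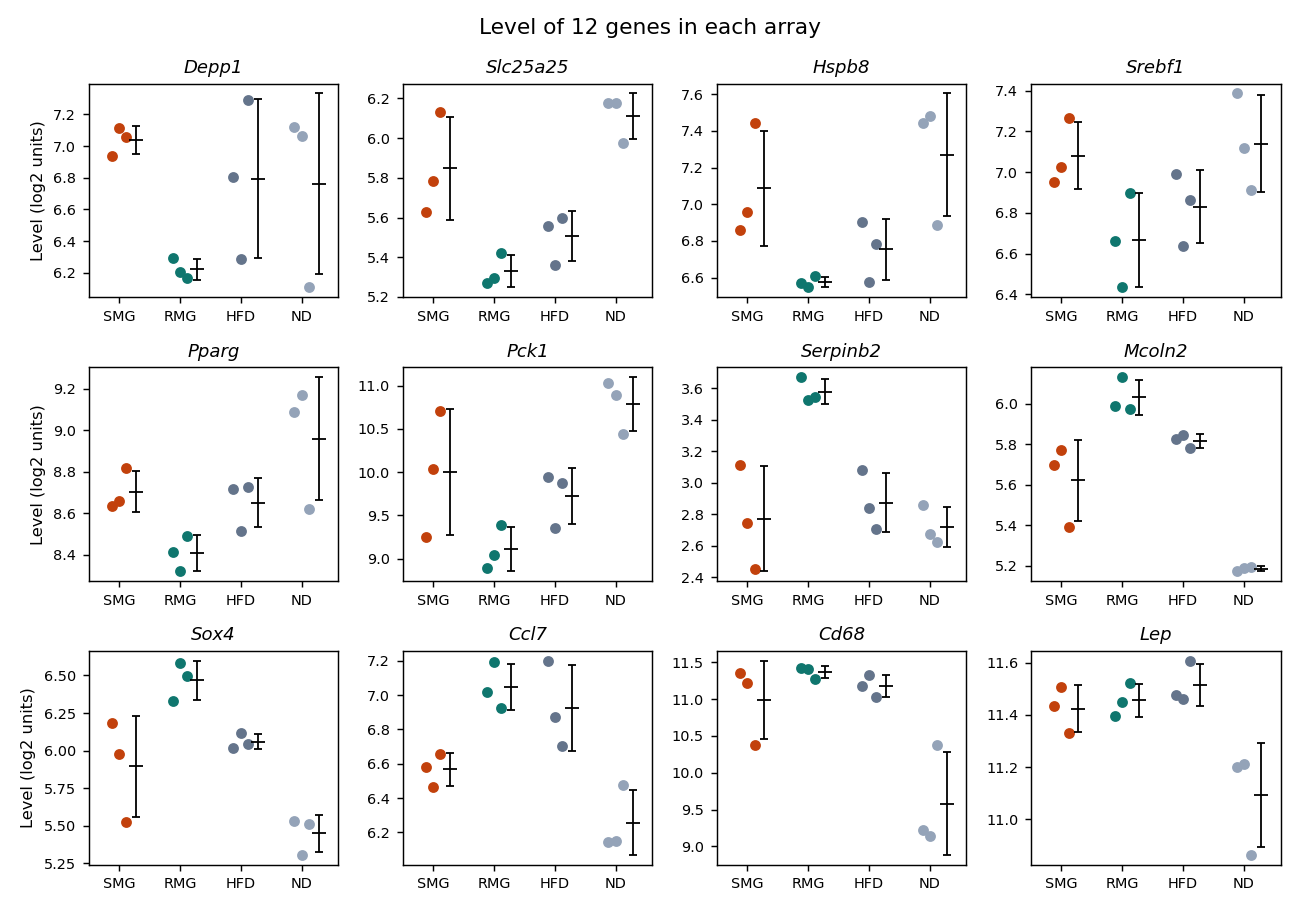
Log2 level of 12 genes in each array of SMG, RMG, HFD and ND, with points for arrays and a bar for the mean ± SD of 3 arrays. The panels differ in scale, and the SMG and RMG arrays do not overlap in Depp1, Slc25a25, Hspb8, Srebf1, Pparg, Serpinb2, Mcoln2, Sox4 and Ccl7, while they do in Pck1, Cd68 and Lep.

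Among the 12 with the lower mean in SMG, Serpinb2, which encodes plasminogen activator inhibitor type 2, had the smallest p of all genes. It stood at 3.12, 2.75 and 2.45 in SMG arrays 5, 8 and 12, against 3.67, 3.52 and 3.54 in RMG arrays 4, 9 and 10, a difference of -0.81 ± 0.16 with a 95% interval from -1.15 to -0.46. The landmark groups lay with SMG, at 2.88 ± 0.19 in HFD and 2.72 ± 0.12 in ND (SD, n = 3 each). All SMG and RMG values of Serpinb2 were low, below the array medians of 4.23 to 4.39. With array weights Serpinb2 was the only gene past the threshold, with a difference of -0.83 (adjusted p = 0.0463 by limma). In the other settings that tested it, its adjusted p lay between 0.197 and 1.00.

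DQ267101, a small nucleolar RNA, stood at 3.41, 3.32 and 2.77 in SMG arrays 5, 8 and 12, against 3.98, 3.82 and 4.12 in RMG arrays 4, 9 and 10, and its other probe had a difference of 0.05. Mcoln2, a cation channel of endosomes and lysosomes in immune cells, stood at 5.70, 5.77 and 5.39 in the SMG arrays, against 5.99, 6.13 and 5.98 in the RMG arrays. Sox4, a transcription factor gene, stood at 6.19, 5.98 and 5.53 in the SMG arrays, against 6.33, 6.58 and 6.50 in the RMG arrays, and its dimmer probe had the same sign, at -0.30. In Mcoln2 and Sox4 the RMG arrays lay above all HFD arrays, and both genes had risen in HFD against ND, by 0.63 and 0.61.

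The chemokine gene Ccl12 averaged 2.99 ± 0.10 in SMG and 3.53 ± 0.28 in RMG (SD, n = 3 each). Net1, an exchange factor for the GTPase RhoA, averaged 6.92 ± 0.17 in SMG and 7.38 ± 0.04 in RMG. Ncs1, a calcium sensor, Ptgdr, a receptor for prostaglandin D2, Dpm2, a subunit of dolichol-phosphate mannose synthase, Hint1, a nucleotide hydrolase gene, Chmp3, a subunit of the membrane-sorting complex ESCRT-III, and Lrit2 completed the 12, with differences from -0.55 to -0.24. The second probe of Ptgdr had a difference of -0.05. Ccl12, Gsdma3, Rsph3a and Zfp867 belong to families of similar genes, so the member that a probe reads is uncertain. For 8 of the 12 genes with the higher mean in SMG, HFD minus ND was negative, and for 9 of the 12 with the lower mean in SMG it was positive. Of the 12 in each direction, 3 and 4, respectively, were called in HFD against ND in either direction, where 8.63 percent of all genes were. The sign counts were not set beside all genes, and SMG array 12 took part in choosing the 24. They are description only.

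The SMG and RMG levels can each be set beside HFD, with the reservation that both then share the 3 HFD arrays. No gene passed in SMG against HFD (300 genes at an unadjusted p under 0.05, 1.85 percent, smallest adjusted p 0.9999) or in RMG against HFD (458 genes, 2.82 percent, smallest adjusted p 0.338). For Serpinb2 the SMG minus HFD difference was -0.10 ± 0.16 and the RMG minus HFD difference 0.70 ± 0.16. For Depp1 they were 0.24 ± 0.23 and -0.57 ± 0.23, and for Hrk 0.48 ± 0.12 and 0.06 ± 0.12. Of the 24 genes, 15 had RMG farther from HFD than SMG was. The 24 were chosen for their SMG and RMG values, and the count was not made over all genes, so it supports nothing.

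Of 45 gene lists with 416 measured genes, drawn up for this tissue with earlier results of these data known, none held a gene that passed in SMG against RMG. The lists are described by their counts and medians, beside a median of -0.0056 and 48.3 percent of genes above 0 over all genes. Genes of fat storage lay on the higher side in SMG. In the triglyceride synthesis list 9 of 10 measured members had a difference above 0, with a median of 0.24, and in the mature adipocyte list 6 of 8 had, with a median of 0.26. Without SMG array 12 these medians were 0.13 and 0.09. Both lists count Pck1, so they are not separate, and the mean levels of both overlapped between the groups. SMG array 5 stood at 8.16 and 8.63 in them, against 8.25 and 8.72 in RMG array 10.

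Pck1 stood at 9.26, 10.04 and 10.71 in SMG arrays 5, 8 and 12, against 8.89, 9.04 and 9.39 in RMG arrays 4, 9 and 10, so the groups overlapped between SMG array 5 and RMG array 10. The difference was 0.89 ± 0.28 (95% interval 0.30 to 1.49) and 0.54 without SMG array 12, beside means of 9.72 ± 0.32 in HFD and 10.79 ± 0.31 in ND (SD, n = 3 each). Dgat1, which catalyses the last step of triglyceride synthesis, averaged 8.19 ± 0.17 in SMG and 7.82 ± 0.24 in RMG, with overlap. Lpin1, a phosphatidate phosphatase gene of the same pathway, averaged 9.20 ± 0.18 in SMG and 8.81 ± 0.12 in RMG, without overlap.

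The regulators Srebf1, Pparg and Mlxipl showed small differences with all SMG arrays above all RMG arrays, as did 4.83 percent of all genes. Srebf1 and Pparg were named as core panel genes and Mlxipl for its small p within its list. Srebf1, a regulator of fatty acid synthesis, stood at 6.95, 7.02 and 7.27 in SMG arrays 5, 8 and 12, against 6.66, 6.43 and 6.90 in RMG arrays 4, 9 and 10, a difference of 0.42 ± 0.13. Pparg, the master regulator of adipocytes, stood at 8.64, 8.66 and 8.82 in the SMG arrays, against 8.41, 8.32 and 8.49 in the RMG arrays, a difference of 0.30 ± 0.12. Mlxipl, which encodes the glucose-responsive factor ChREBP, averaged 6.58 ± 0.10 in SMG and 6.36 ± 0.03 in RMG (SD, n = 3 each). In all 3 genes SMG array 5 was the lowest SMG array and RMG array 10 the highest RMG array.

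The fatty acid synthesis list, which counts Srebf1 and Mlxipl among its members, had 6 of 12 above 0 and a median of 0.05. In 3 of the 12 all SMG arrays lay above all RMG arrays, and in 1 they all lay below, beside 4.83 and 4.6 percent of all genes. Srebf1 and Mlxipl, described above, are among the 3. Fasn, the fatty acid synthase gene, had a difference of 0.16 ± 0.13 (95% interval -0.12 to 0.43), Acaca, which makes its substrate, of 0.30 ± 0.21 (95% interval -0.13 to 0.73), and Scd1, a desaturase gene, of 0.23 ± 0.12. The insulin-responsive glucose transporter gene Slc2a4 averaged 6.65 ± 0.31 in SMG and 6.24 ± 0.35 in RMG (SD, n = 3 each), and Foxo1, a transcription factor held back by insulin, 7.55 ± 0.16 in SMG and 7.26 ± 0.06 in RMG. The insulin signalling list around them had a median of 0.01, with 6 of 10 members above 0.

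The leptin and adiponectin genes, which encode adipocyte hormones, had overlapping arrays in SMG and RMG. Lep, the leptin gene, stood at 11.43, 11.51 and 11.33 in SMG arrays 5, 8 and 12, against 11.40, 11.45 and 11.52 in RMG arrays 4, 9 and 10, a difference of -0.03 with a 95% interval from -0.41 to 0.35. Adipoq, the adiponectin gene, had a difference of 0.23 ± 0.17, and 0.06 without SMG array 12. Fabp4, the fatty acid carrier of adipocytes, stood between 11.98 and 12.32 in all 6 arrays. Mest, an imprinted gene linked to fat expansion in mice, averaged 10.82 ± 0.08 in SMG and 10.58 ± 0.03 in RMG (SD, n = 3 each), and Itln1, an adipokine gene, 2.90 ± 0.20 in SMG and 2.40 ± 0.21 in RMG. Both means of Itln1 lay below the array medians of 4.23 to 4.39.

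All 10 measured genes of branched-chain amino acid breakdown had a difference above 0, between 0.055 and 0.36, with a median of 0.25 and of 0.16 without SMG array 12. Their mean level was 7.40, 7.50 and 7.71 in SMG arrays 5, 8 and 12, against 7.23, 7.27 and 7.42 in RMG arrays 4, 9 and 10. The arrays of the groups overlapped in 8 of the 10 genes and stood apart in Mmut, the methylmalonyl-CoA mutase gene, and Pcca, a subunit gene of propionyl-CoA carboxylase. Over all genes, 4.83 percent had all SMG arrays above all RMG arrays. Hibch, an enzyme gene of valine breakdown, had the smallest p of the list, with a difference of 0.32 ± 0.15. By contrast the respiratory chain list (9 of 12 above 0, median 0.04) and the fatty acid oxidation list (8 of 13 above 0, median 0.03) lay close to the median of all genes.

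**Figure D3:**
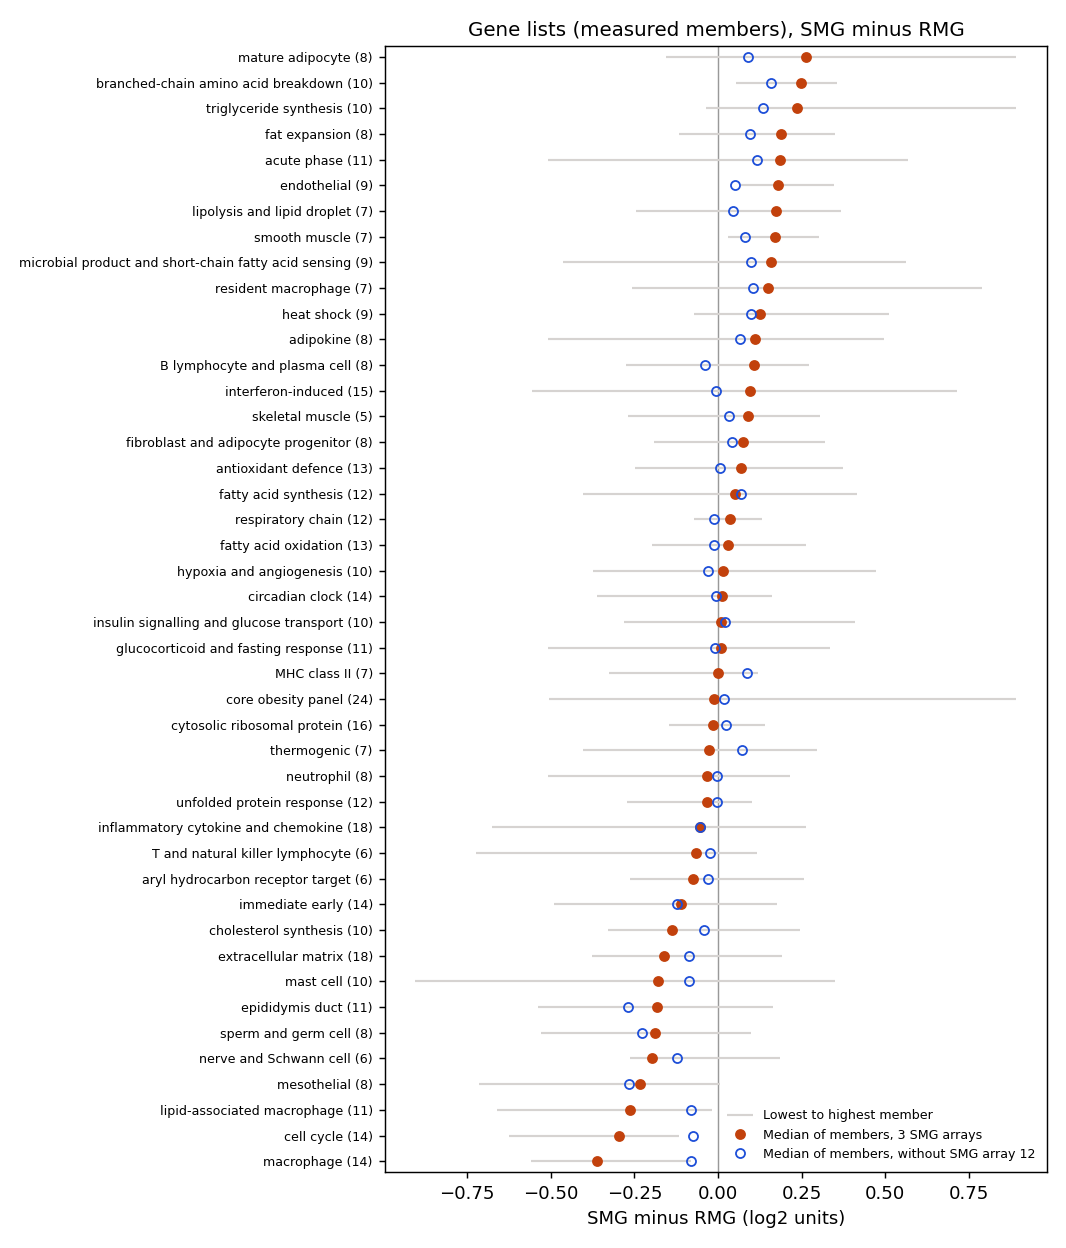
Median SMG minus RMG difference of each gene list with at least 3 measured members, in log2 units, with all arrays (filled) and without SMG array 12 (open), and a line from the lowest to the highest member. Numbers in brackets are measured members. The medians run from -0.36 for the macrophage list to 0.26 for the mature adipocyte list, and 32 of the 44 medians lie nearer to 0 without SMG array 12.

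Macrophage genes lay on the lower side in SMG, with 1 SMG array far below the rest. All 14 measured macrophage genes had a difference below 0, between -0.56 and -0.08, with a median of -0.36, and the arrays of the groups overlapped in each of them. The mean level of the list was 9.43, 9.27 and 8.45 in SMG arrays 5, 8 and 12, against 9.53, 9.40 and 9.34 in RMG arrays 4, 9 and 10. Without SMG array 12 the median difference was -0.08. All 14 had risen in HFD against ND, where 6.54 percent of genes did, and the list stood at 9.23 in HFD and 7.98 in ND.

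Cd68, a lysosomal protein gene of macrophages, stood at 11.36, 11.22 and 10.38 in SMG arrays 5, 8 and 12, against 11.42, 11.41 and 11.27 in RMG arrays 4, 9 and 10. Adgre1, a surface receptor gene of macrophages, had a difference of -0.51 ± 0.31 (95% interval -1.16 to 0.15), Csf1r, the receptor for the macrophage growth factor, of -0.34, and Ms4a7 of -0.56. The lipid-associated macrophage list had 11 of 11 members below 0, a median of -0.26 and of -0.08 without SMG array 12. Trem2, its lipid-sensing receptor, stood at 9.19, 8.94 and 7.69 in SMG arrays 5, 8 and 12, against 9.26, 9.35 and 9.06 in RMG arrays 4, 9 and 10, and Gpnmb had a difference of -0.56 ± 0.44.

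Genes of resident macrophages gave another pattern, with 5 of 7 above 0 and a median of 0.15. Retnla, a gene of alternatively activated macrophages, stood at 8.44, 9.17 and 9.71 in SMG arrays 5, 8 and 12, against 8.62, 7.93 and 8.40 in RMG arrays 4, 9 and 10. Its difference of 0.79 ± 0.30 was 0.49 without SMG array 12. Mrc1, the mannose receptor gene, had a difference of -0.26 ± 0.16.

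Of 18 cytokine and chemokine genes, 11 had a difference below 0, with a median of -0.05, and 4 (Ccl7, Il33, Cxcl2 and Cxcl10) had all SMG arrays below all RMG arrays, where 4.6 percent of all genes did. Ccl7, a chemokine that draws monocytes, stood at 6.58, 6.46 and 6.66 in SMG arrays 5, 8 and 12, against 7.02, 7.19 and 6.92 in RMG arrays 4, 9 and 10, a difference of -0.48 ± 0.22. Il33, an alarm cytokine of stromal cells, averaged 4.59 ± 0.20 in SMG and 5.01 ± 0.24 in RMG (SD, n = 3 each). SMG array 12 was the highest SMG array for Ccl7 and the middle one for Il33, and without it the differences were -0.52 and -0.42.

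The arrays of the groups overlapped in Il1rn, Ccl2 and Tnf. Il1rn, the interleukin 1 receptor antagonist gene, had a difference of -0.62 ± 0.27, Ccl2, another chemokine for monocytes, of -0.27 ± 0.25 and Tnf of -0.34 ± 0.21, and without SMG array 12 these were -0.31, -0.03 and -0.11. Cxcl9, a chemokine induced by interferon gamma, had its highest value in SMG array 12, at 8.90, against 7.80 and 8.09 in SMG arrays 5 and 8 and 7.90 to 8.08 in the RMG arrays. Iigp1 and Igtp, GTPases induced by interferon gamma, stood at 8.30 and 7.34 in SMG array 12, against at most 6.95 and 5.98 in the other 5 arrays. Gbp3, another interferon-induced GTPase gene, had a difference of 0.49 ± 0.21, while Mx1, annotated as a transcribed pseudogene, had one of -0.56 ± 0.22. Over the interferon list 10 of 15 members lay above 0, with a median of 0.10, and of -0.0046 without SMG array 12.

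**Figure D4:**
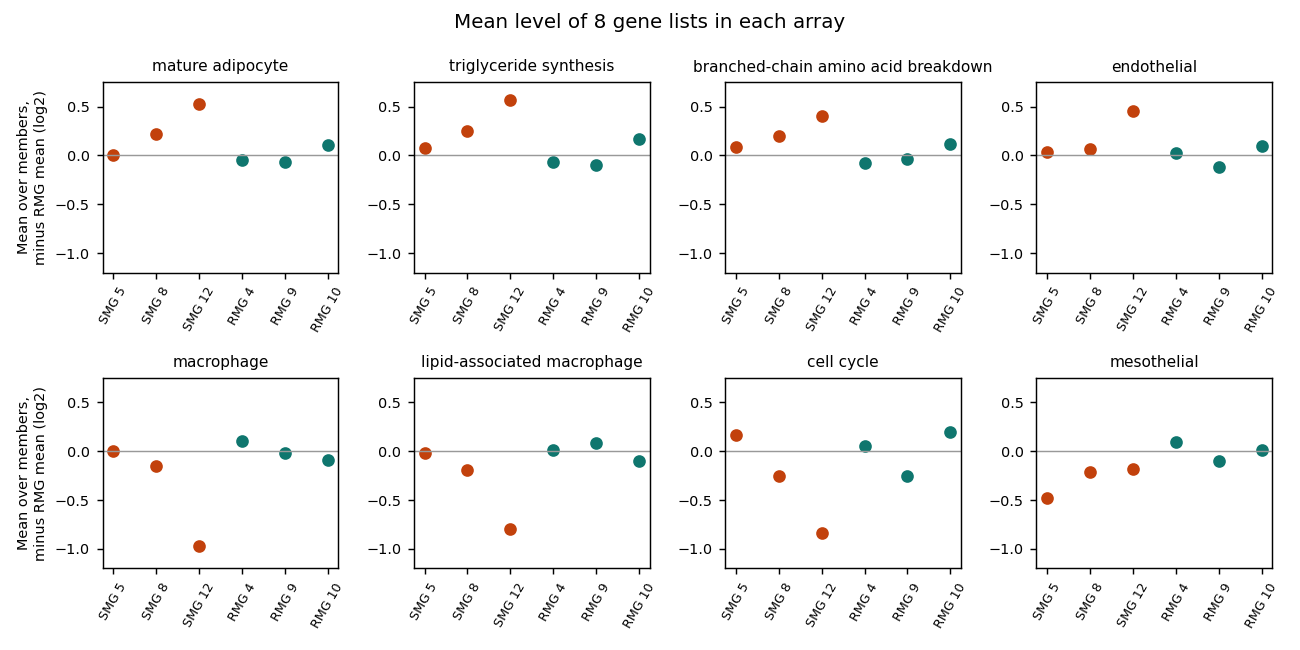
Mean log2 level of 8 gene lists in each SMG and RMG array, minus the mean of the RMG arrays. SMG array 12 is the lowest of the 6 for the macrophage, lipid-associated macrophage and cell cycle lists and the highest for the mature adipocyte, triglyceride synthesis, branched-chain and endothelial lists, and all 3 SMG arrays lie below the RMG arrays for the mesothelial list.

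Cell division genes tracked the same array. All 14 measured members lay below 0 with a median of -0.30, and of -0.07 without SMG array 12. Their mean level was 5.93, 5.51 and 4.92 in SMG arrays 5, 8 and 12, against 5.81, 5.51 and 5.96 in RMG arrays 4, 9 and 10. Pcna, the sliding clamp of DNA replication, stood at 8.38, 8.26 and 7.37 in the SMG arrays, against 8.43, 8.37 and 8.43 in the RMG arrays, and Bub1, a mitotic checkpoint kinase gene, had the largest difference of the list at -0.62. The cholesterol synthesis list had 3 of 10 members above 0 and a median of -0.14, with Sqle at -0.28 and Hmgcs1 at 0.25. Without SMG array 12 the median was -0.04, with Sqle at -0.10 and Hmgcs1 at 0.18.

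In the matrix list 13 of 18 members lay below 0, with a median of -0.16, and of -0.09 without SMG array 12. Postn, the periostin gene, averaged 9.52 ± 0.20 in SMG and 9.80 ± 0.14 in RMG (SD, n = 3 each), Col1a1 had a difference of -0.30 ± 0.17 and Lum, a collagen-binding proteoglycan gene, of -0.38. The landmark means were 9.45 in HFD and 8.93 in ND for Postn, and 9.53 in HFD and 8.87 in ND for Col1a1.

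Endothelial and smooth muscle genes lay on the higher side in SMG. All 9 measured endothelial genes had a difference above 0, between 0.07 and 0.35, with a median of 0.18, and of 0.05 without SMG array 12. Kdr, the main receptor for the vessel growth factor, stood at 7.96, 8.04 and 8.75 in SMG arrays 5, 8 and 12, against 7.79, 7.80 and 8.12 in RMG arrays 4, 9 and 10. Vegfa, that growth factor, stood at 7.89, 8.30 and 8.66 in the SMG arrays, against 7.75, 7.70 and 7.99 in the RMG arrays, a difference of 0.47 ± 0.17. Flt1, another of its receptors, and Tek, the receptor for angiopoietins, had differences of 0.37 ± 0.16 and 0.30 ± 0.15, without overlap. Of the 9 endothelial genes, 2 had all SMG arrays above all RMG arrays, Tek among them, where 4.83 percent of all genes did. All 7 smooth muscle genes lay above 0 too, with a median of 0.17 and of 0.08 without that array. Egln3, an oxygen sensor, went the other way, with 3.55 ± 0.21 in SMG and 3.92 ± 0.09 in RMG (SD, n = 3 each). Vegfa and Egln3 were the highest and lowest of the hypoxia and angiogenesis list, which was split. Of its 10 measured members 5 lay above 0 and 5 below, with a median of 0.01, and of -0.03 without SMG array 12. All SMG arrays lay above all RMG arrays in 2 of them and below in 2, beside 4.83 and 4.6 percent of all genes.

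Markers of tissue next to the fat pad lay mostly on the lower side in SMG. Of 8 mesothelial genes, which mark the covering of the pad, 7 lay below 0, with a median of -0.23, and of -0.27 without SMG array 12. Upk3b, a membrane protein gene of that covering, stood at 4.97, 5.46 and 5.40 in SMG arrays 5, 8 and 12, against 6.50, 5.61 and 5.86 in RMG arrays 4, 9 and 10. Of 11 genes of the epididymis duct 8 lay below 0, with a median of -0.18. The mean level of that list was low, between 3.11 and 3.55 in the SMG and RMG arrays, below the array medians of 4.23 to 4.39. Gpx5, an epididymal peroxidase gene, averaged 2.69 ± 0.47 in SMG and 3.23 ± 0.43 in RMG, and Defb20, an epididymal defensin gene, 2.93 ± 0.11 in SMG and 3.31 ± 0.14 in RMG (SD, n = 3 each). The sperm list stood at 5.08, 4.80 and 5.15 in the SMG arrays, against 4.73, 5.83 and 5.11 in RMG arrays 4, 9 and 10, and Tnp2, a sperm chromatin gene, reached 5.59 in RMG array 9, against 3.08 to 4.07 in the SMG arrays. The mean of the mesothelial list was lower in all SMG arrays than in the RMG arrays. The epididymis list overlapped, with 3.32 in SMG array 12 and 3.22 in RMG array 4. Gpx5 overlapped too, with 3.22 and 2.97 in these arrays. Upk3b varied widely within the landmark groups, from 4.94 to 6.80 in HFD and from 4.86 to 7.20 in ND. The sperm list was highest in RMG array 9. The part of these tissues in other differences was not tested.

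The mast cell list stood at 4.60, 4.43 and 3.98 in SMG arrays 5, 8 and 12, against 4.49, 4.78 and 4.38 in RMG arrays 4, 9 and 10, and Cpa3, a mast cell protease gene, was at 4.75 in SMG array 12, against 6.84 to 7.85 in the other 5 arrays. Hdc, the histamine-forming enzyme gene, went the other way, with a difference of 0.35 ± 0.16. Myh15, a myosin gene outside the naming rule that was chosen after its values were seen, for its difference of -0.91, stood at 5.63, 5.55 and 4.24 in the SMG arrays, against 6.28, 5.92 and 5.95 in the RMG arrays. T and natural killer cell, B cell, neutrophil and MHC class II lists had medians of -0.07, 0.11, -0.03 and 0.0014. Without SMG array 12 these were -0.02, -0.04, -0.0040 and 0.09, so the sign turned for the B cell list.

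Receptors that sense nutrients and microbial products had mixed differences. In the list of microbial product and fatty acid receptors 5 of 9 measured genes lay above 0, with a median of 0.16, and 4 had all SMG arrays above all RMG arrays, where 4.83 percent of all genes did. Hcar1, the lactate receptor gene of adipocytes, stood at 7.37, 7.76 and 8.03 in SMG arrays 5, 8 and 12, against 7.11, 7.02 and 7.35 in RMG arrays 4, 9 and 10. Ffar4, a receptor for long-chain fatty acids, averaged 5.70 ± 0.23 in SMG and 5.35 ± 0.11 in RMG (SD, n = 3 each). The other 4 members of the list lay below 0. The lowest was Cd14, also counted in the macrophage list, with a difference of -0.46, and of -0.13 without SMG array 12. The list of aryl hydrocarbon receptor targets had a median of -0.07.

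The circadian clock list had 8 of 14 members above 0 and a median of 0.01, and in it Bhlhe40, a repressor in the clock, averaged 6.66 ± 0.23 in SMG and 7.02 ± 0.17 in RMG (SD, n = 3 each). The antioxidant list had a median of 0.07, with the glutathione transferase gene Gstm1 at a difference of 0.38 ± 0.12 and the thioredoxin gene Txn1 at -0.25 ± 0.11. The unfolded protein list had a median of -0.03, the heat shock list of 0.13, the immediate early list of -0.11 and the ribosomal protein list of -0.02.

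A measure over all genes placed each array between the ND mean, at 0, and the HFD mean, at 1. It is the slope of an array's gene differences from ND on the HFD minus ND differences, and SMG and RMG share no array with that axis. SMG arrays 5, 8 and 12 stood at 1.07, 0.94 and 0.50, against 1.07, 0.95 and 1.11 for RMG arrays 4, 9 and 10. SMG array 12 thus lay midway to ND, and the other 5 arrays lay within the HFD range of 0.91 to 1.12. The means were 0.84 ± 0.30 in SMG and 1.05 ± 0.08 in RMG (SD, n = 3 each), a difference of -0.21 that did not pass (exact permutation test over 20 assignments, two-sided, p = 0.2, where 0.1 is the smallest possible). Without SMG array 12 the difference was -0.04.

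**Figure D5:**
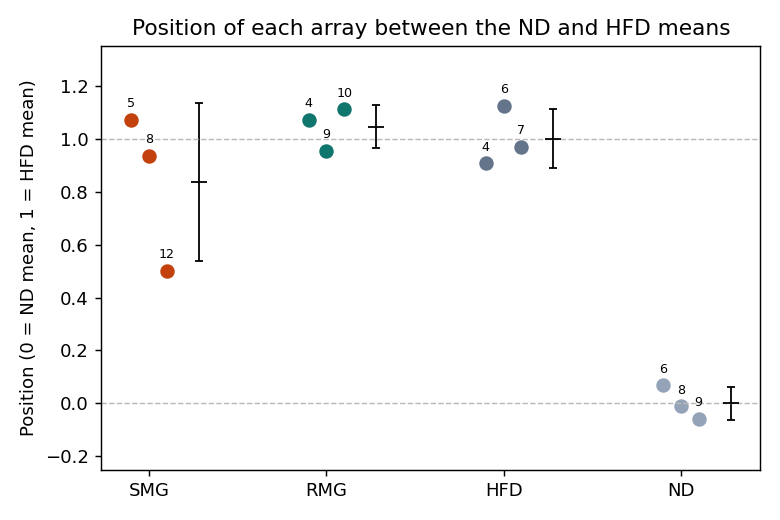
Position of each array on the axis from the ND mean (0) to the HFD mean (1), with array numbers and bars for the mean ± SD of 3 arrays. SMG array 12 lies at 0.50, and the other SMG and RMG arrays between 0.94 and 1.11.

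Of 1063 genes higher in HFD, 91.4 percent had a lower mean in SMG than in RMG, against 51.7 percent of all genes, with a median difference of -0.18. Of 340 genes lower in HFD, 62.6 percent had a higher mean in SMG than in RMG, against 48.3 percent of all genes, with a median of 0.06. SMG array 12 alone, set against the RMG mean, had medians of -0.44 and 0.14 over these sets, and SMG arrays 5 and 8 alone had -0.05 and 0.02. Of the genes higher in HFD, 70.5 percent lay below the RMG mean in SMG arrays 5 and 8 alone, where 51.7 percent of all genes did, and 95.8 percent in SMG array 12. All 3 SMG arrays lay below all RMG arrays in 12.4 percent of them, against 4.6 percent of all genes. These genes vary together within an array, so their shares rest on 6 arrays and not on 1403 genes.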

How the data were processed

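The deposited table holds log2 levels made by the authors, 1 value per probe for each of 21 GeneChip arrays labelled from Trizol total RNA, per the labels' protocols. How probe sets were summarised and normalized, and the log base, were not stated in the text at hand. The base was taken from the values, which ran from 0.844 to 12.7. Of 24292 probes, 24291 had all values. The platform annotation gave 17067 of these 1 symbol, 1139 several and 6085 none, and 16248 genes remained (symbols updated through GRCm38.p6, where 116 probes had no match). All array columns were matched (0 unmatched).

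The test was a two-sided moderated limma fit (version 3.58.1, R 4.3.3) of all 21 arrays by group, with an intensity trend and Benjamini-Hochberg adjustment over all genes. The text names the 12 genes a direction with the smallest p and no overlap, since none passed, up to 4 members per list with the smallest p, other members of lists it counts, and a core obesity panel, and says where a gene falls outside this. The members and lists were chosen with earlier results of these data known. Of 616 list genes 416 were measured. The test was checked on simulated data. Without scan dates or batch labels at hand, no batch was tested. Alternatives were 2 scalings, 3 choices of genes or probes, the SMG and RMG arrays alone, array weights, 2 variance settings and leaving out each array.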

Additional observations from a re-analysis of the deposited data

How the results depend on the processing

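The count of called genes in SMG against RMG was 0 under quantile normalization, median centring, dim genes left out, every probe tested, averaged probes, no trend, robust moderation and the SMG and RMG arrays alone (smallest adjusted p 0.106 by limma there), and 0 to 0 over the fits without a single array. It was 1 with array weights (Serpinb2). The shift along the diet axis stayed negative, from -0.33 without SMG array 5 to -0.04 without SMG array 12. Of 88 named genes, 4 changed sign. Array weights put Lep at 0.041 and Fabp4 at -0.018. Over the fits without a single array Lep ran from -0.074 to 0.014, Fabp4 from -0.016 to 0.16, Tnp2 from -1.05 to 0.19 and Cxcl9 from -0.055 to 0.49. Of 434 pairs of a list and a setting, 16 moved the list median by more than 1 SD between arrays. That SD includes SMG array 12, so it is wide where this array stood apart and cannot show that a list is independent of it. The macrophage median went from -0.36 to -0.08 without SMG array 12, beside an SD of 0.52 in SMG, and was not among the 16. Over the fits without a single array the B cell list ran from -0.038 to 0.18, fatty acid oxidation from -0.012 to 0.097, thermogenic from -0.069 to 0.078, cytokines from -0.13 to -0.033, heat shock from 0.034 to 0.20, antioxidant from 0.0072 to 0.086, microbial sensing from 0.097 to 0.22 and adipokines from 0.065 to 0.18. With dim genes left out cytokines were at -0.18, hypoxia at 0.14 and adipokines at -0.014, since fewer members were counted. No paired analysis was possible because SMG and RMG share no replicate number in their titles. Signal over background cannot be judged, as no detection value was at hand.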
